A study of Canis lupus familiaris with 5 samples.

Results

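A stretch of dog chromosome 7 whose RNA was far lower in reprogrammed cells than in the fibroblasts they came from was followed gene model by gene model. It runs from 43447070 to 43533637 in CanFam3.1 and is 86568 bases long. Every gene model of the count table that lies wholly inside these bounds was taken, which gave 6 of the 32220 models, or 6 of the 1126 on chromosome 7. They are called members 1 to 6 here, in order of position: ENSCAFG00000017545, ENSCAFG00000032326, ENSCAFG00000017548, ENSCAFG00000017550, ENSCAFG00000017553 and ENSCAFG00000017554. The members were chosen by measured levels, since the bounds had been drawn around neighbouring genes that were lower in induced pluripotent stem cells (iPSCs) than in fibroblasts. That difference is therefore given below as a description.

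All 5 RNA libraries came from a single adult dog, K9. There was 1 library of ear skin fibroblasts at passage 1. There was 1 library of induced neural stem cell-like cells (iNSLCs) at passage 2, the dome-shaped primary colonies that grew in NSM, a medium made for naive stem cells. Before that, the fibroblasts had received the EP-B episomal vectors, which carry a dominant-negative mouse Trp53, EGFP and the human factors LIN28, L-MYC, KLF4, SOX2 and OCT4, as well as KLF2, NANOG, GLIS1 and KDM4D. There were 3 libraries of iPSC clones, which arose when colonies were passed on into ESM, a medium for embryonic stem cells, at passage 9 for clone 1 and passage 8 for clones 2 and 3. Passage and medium changed together with the group, so that their parts cannot be told apart from that of the cell state. Because all clones stem from the same dog, the spread between them is not a spread between animals.

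The deposited tables name genes by Ensembl IDs alone. The gene names at hand belong to another dog assembly, UU_Cfam_GSD_1.0, whose RefSeq rows hold 0 Ensembl IDs, so no member could be given a symbol. On chromosome 7 of that assembly 12 of its 14 S100A genes follow each other with 1 other protein-coding gene among them, and a locus of S100A genes was the expectation for this place. It was not verified for any member, and cell type markers could likewise not be looked up. As background, S100 proteins are small calcium-binding proteins of the EF-hand type. They pair up, change shape when calcium binds and then attach to partner proteins, and several of them are known from fibroblasts and other motile cells, where they bind cytoskeletal proteins and annexins. Their genes are short, with few exons, and most of them sit side by side on a single chromosome in mammals.

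The members were short and simple. All 6 lay on the + strand, which holds 51.8% of the models of chromosome 7. They had 2 exons (members 2, 3, 5 and 6) or 3 exons (members 1 and 4) and spanned between 602 and 5770 bases. A model of 2 or 3 exons with a span of at most 5770 bases is common in the table, at 18.7% of all models. Each member held an exon of between 135 and 177 bases as its shortest, and the summed exon length ran from 273 bases in member 5 to 1631 bases in member 1. Members 3 and 4 were the closest neighbours, with 1722 bases between them, and the widest gaps were 27868 bases after member 1 and 27879 bases before member 6. No exon of a member overlapped an exon of another model, on either strand.

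Levels are given as CPM, the usual unit of counts relative to library size, with TMM factors that level the libraries on the bulk of their genes. The libraries held 11699186 counts (iNSLC) to 34317091 counts (iPSC 3), and 3 counts, taken as the floor below which a level is not read, equalled 0.0810 to 0.262 CPM. Even numbers prevailed among low counts, and it was not stated if the mates of a pair were counted singly. If they were, the intervals given here are too narrow and the floor stands for fewer fragments than counts. Bulk RNA cannot tell fewer expressing cells from less RNA per cell.

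Member 5 was the most abundant of the locus in all libraries. ENSCAFG00000017553 (43502396 to 43502997) stood at 876 CPM in the fibroblast library and at 295 CPM in the iNSLC library. In iPSC clones 1, 2 and 3 it stood at 9.61, 20.5 and 14.5 CPM. The fibroblast level lay far above all others and the clones did not reach the iNSLC level. Per kilobase of exon, its fibroblast level of 3207 CPM per kilobase ranked 20 of 32220 models and 3 of those on chromosome 7. In iNSLCs it ranked 77. It was still detected in the iPSC libraries, where it ranked between 1053 and 2459. That was within the upper 7.63% of models in the lowest clone, and its counts of 311 to 537 per clone were far over the floor. Reads of mouse feeder cells were not separated, and which cells of the cultures gave these reads was not tested. The clones differed from each other by more than counting error, with 95% Poisson intervals of 8.58 to 10.7 CPM in clone 1, 18.7 to 22.5 CPM in clone 2 and 13.3 to 15.8 CPM in clone 3.

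Member 4 fell further. ENSCAFG00000017550 (43493845 to 43496166) reached 544 CPM in the fibroblast library, against 62.3 CPM for iNSLCs. In iPSC clones 1 to 3 it had 0.185, 0.578 and 0.324 CPM, from 6, 13 and 12 counts. It was thus among the abundant genes of fibroblasts, at rank 149 per kilobase, and close to the floor in every clone. Its mean of 0.363 ± 0.199 CPM (SD, n = 3) in iPSCs was far under its iNSLC level.

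Member 1 was the remaining one with a sizeable level. ENSCAFG00000017545 (43447070 to 43452839) was measured at 76.1 CPM for fibroblasts, at 23.7 CPM for iNSLCs and at 0.0618, 0.0890 and 0.486 CPM for clones 1 to 3. Clone 3 had 18 counts where clones 1 and 2 had 2 each, and its interval of 0.288 to 0.768 CPM lay above that of clone 1 and overlapped that of clone 2 only from 0.288 to 0.321 CPM. Per kilobase member 1 ranked 2230 in fibroblasts and 5247 in iNSLCs.

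The other members were low throughout. Member 2, ENSCAFG00000032326 (43480708 to 43482461), had 3.55 CPM in fibroblasts from 91 counts, 0.523 CPM in iNSLCs from 6 counts, and 0.371, 0.178 and 0.351 CPM in the clones. Only the fibroblast library stood out, as the iNSLC interval of 0.192 to 1.14 CPM covered or overlapped those of all clones. Member 6, ENSCAFG00000017554 (43530877 to 43533637), had 17 counts in fibroblasts (0.664 CPM), 3 counts in iNSLCs (0.262 CPM) and 0 in each clone. Member 3, ENSCAFG00000017548 (43491471 to 43492122), had 1 count in fibroblasts and 0 in all other libraries, so nothing can be said of its change.

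**Figure D1:**
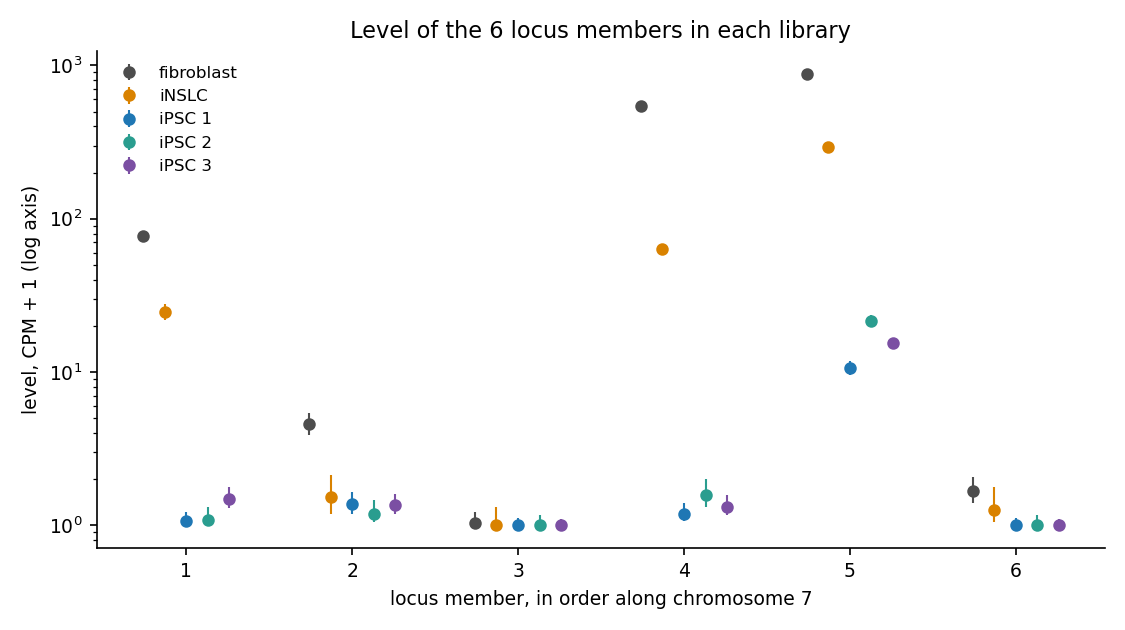
Level of each locus member in each library, drawn on a logarithmic axis after adding 1 to the CPM, where points are libraries and bars stand for the 95% Poisson interval of its count. Members 1, 4 and 5 stand at 76.1, 544 and 876 CPM in fibroblasts, and only member 5 stays above 9 CPM in the iPSC clones, at 9.61 to 20.5 CPM.

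Added up, the 6 members gave 1500 CPM for fibroblasts, 382 CPM for iNSLCs and 10.2, 21.4 and 15.7 CPM for the clones, a mean of 15.8 ± 5.56 CPM (SD, n = 3). As a share of all counts, this was 0.115% (Clopper-Pearson interval 0.114 to 0.117%) in fibroblasts, 0.0374% (0.0363 to 0.0385%) in iNSLCs and between 0.00112% and 0.00240% in the clones. Members 4 and 5 made up 36.3% and 58.4% of the locus in fibroblasts. In iPSCs what remained was nearly all member 5, with 92.6 to 96.0% of the counts of the locus. Without member 5, the locus summed to 624 CPM for fibroblasts and 86.9 CPM for iNSLCs, and iPSCs averaged 0.875 ± 0.273 CPM (SD, n = 3).

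Against fibroblasts, the contrast that chose the locus, edgeR's quasi-likelihood test could be run for 5 members, as member 3 had too few counts. All 5 were called lower in iPSCs at a Benjamini-Hochberg adjusted p under 0.05, where 14.3% of the 17479 genes tested were called lower. The log2 fold change and its standard error were -10.59 (0.525) for member 4, -8.36 (0.869) for member 1, -5.88 (0.432) for member 5 and -3.52 (0.712) for member 2. Their edgeR adjusted p-values were 0.000802, 0.00258, 0.00116 and 0.0171 in the same order. Member 6 had no count in any clone, and its fibroblast level was at least 6.48-fold higher than that of iPSCs set to 3 counts in each clone (edgeR adjusted p = 0.0440). It passed the filter on low counts through the fibroblast library alone, so it could only differ in this direction. The median fold change of the 5 was -7.11 on the log2 scale as fitted and -5.88 with member 6 at its bound, against 0.27 for all genes tested. For member 1, clones 1 and 2 had 2 counts each, under the floor. With them set to 3 counts, the fibroblast level was at least 320-fold the iPSC mean, and 673-fold or more without iPSC 3. Without iPSC 3 its fitted log2 fold change was -9.89. The number called was then 3, members 1, 4 and 5, and DESeq2 did not call member 6 (adjusted p = 0.170).

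The comparison with iNSLCs asked how far the locus was active in the primary colonies. It shares the iPSC libraries with the contrast that chose the members, and the iNSLC levels were also known when the locus was picked, so these calls are not independent of that choice. By edgeR's quasi-likelihood test 3 members, those with the highest levels, were lower in iPSCs than in iNSLCs, where 7.71% of the 17479 genes were called lower. On the log2 scale the difference was -7.47 with an error of 0.488 for member 4 (adjusted p = 0.00188), -6.68 with 0.841 for member 1 (adjusted p = 0.0106) and -4.31 with 0.418 for member 5 (adjusted p = 0.00480). As ratios of mean levels, iNSLCs exceeded iPSCs by 172-fold for member 4 and 19.8-fold for member 5. For member 1, with clones 1 and 2 set to the floor, the ratio was at least 99.9-fold, and 210-fold or more without iPSC 3, the clone with 18 counts. Its fitted log2 fold change without that clone was -8.31. Member 2 was not called, with a log2 fold change of -0.77 and a standard error of 0.874 (adjusted p = 0.572), and no difference was detectable at its 6 counts in iNSLCs. Member 6 was not called either (adjusted p = 0.137), and with 3 counts in iNSLCs it was at the floor on both sides. The median of members 1, 2, 4 and 5 was -5.50, against 0.20 for all genes tested. Without iPSC 3 edgeR called 0 members and 0 genes at all as lower, with 3 of the members at an unadjusted p under 0.05, and the adjusted p of members 1, 4 and 5 lay between 0.0585 and 0.0830. DESeq2 and limma-voom called the same number of members, 3, on all libraries.

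Between fibroblasts and iNSLCs there was 1 library on each side, so these ratios have no replicate check. Their intervals cover the counting error of the iNSLC count alone. The fibroblast level was taken as exact, so the intervals are too narrow for the ratio. Member 4 was 8.72-fold higher in fibroblasts (95% interval 8.11 to 9.40). Member 1 was 3.21-fold higher (2.85 to 3.63) and member 5 was 2.97-fold higher (2.87 to 3.07). The intervals of members 1 and 5 overlapped, and that of member 4 lay above both. Member 2 was 6.79-fold higher (3.12 to 18.5), and for member 6 the ratio of 2.54 had an interval from 0.868 to 12.3, which includes equal levels. Of the 3 members with at least 10 CPM in either library, only member 4 was lower in iNSLCs by a ratio of at least 4, a criterion met by 5.69% of 10237 genes. In the other direction 0 members and 7.95% of these genes met it.

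Members 4 and 5 did not keep a fixed ratio across the libraries. This can be read within each library from the counts of a pair of members, where the scaling of libraries has no part. Of the counts of members 4 and 5 together, member 4 held 38.3% (Clopper-Pearson interval 37.8 to 38.8%) in fibroblasts and 17.5% (16.3 to 18.7%) in iNSLCs. In clones 1, 2 and 3 it held 1.89% (0.698 to 4.07%), 2.74% (1.47 to 4.64%) and 2.19% (1.13 to 3.79%). The share was thus highest in fibroblasts and lowest in iPSCs, with intervals apart between the groups and overlapping among the clones. For members 1 and 5, member 1 held 7.99% (7.66 to 8.34%) in fibroblasts and 7.45% (6.62 to 8.35%) in iNSLCs, 2 shares whose intervals overlap. In the clones it held 0.639% (0.0775 to 2.29%), 0.432% (0.0524 to 1.55%) and 3.24% (1.93 to 5.08%), all under the iNSLC share. The intervals of clones 2 and 3 lay narrowly apart, at 2 and 18 counts of member 1. They would be wider if mates were counted singly, so a difference beyond counting error is not certain here. For members 1 and 4, member 1 held 12.3% (11.8 to 12.8%) in fibroblasts and 27.6% (24.8 to 30.5%) in iNSLCs. In the clones it held 25% (3.19 to 65.1%), 13.3% (1.66 to 40.5%) and 60.0% (40.6 to 77.3%), and no difference from iNSLCs was detectable in clones 1 and 2. These intervals compare libraries by their reads and do not cover the spread between samples of fibroblasts or iNSLCs, which had 1 library each. The shares are a description, since the loss in iPSCs chose the members.

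**Figure D2:**
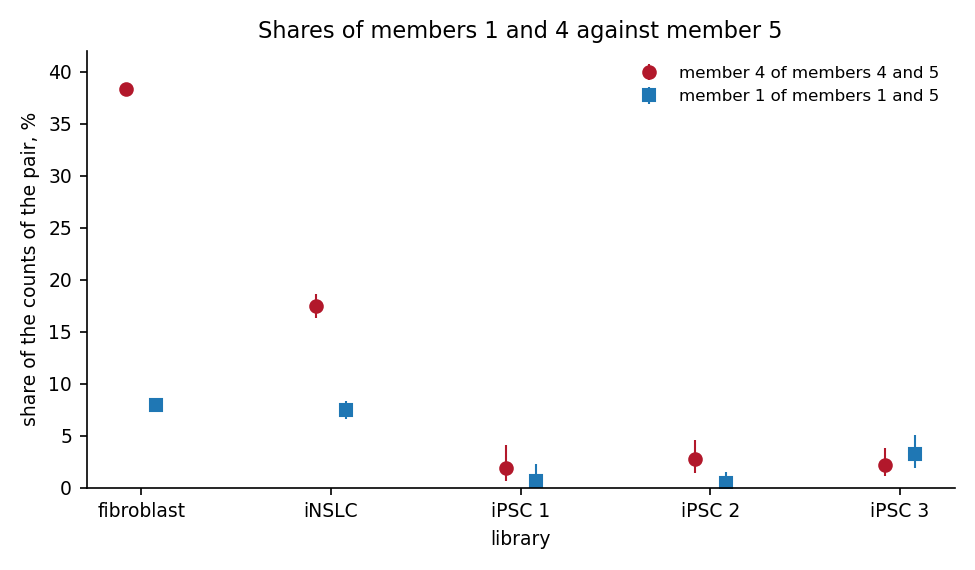
Share of member 4 in the counts of members 4 and 5 (circles) and of member 1 in the counts of members 1 and 5 (squares), in percent, for each library, with 95% Clopper-Pearson intervals. Member 4 goes from 38.3% in fibroblasts to 17.5% in iNSLCs and at most 2.74% in the clones, whereas member 1 goes from 7.99% to 7.45% and at most 3.24%.

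The place of iNSLCs between the other groups was expressed in percent of the log2 distance, where fibroblasts are 0%, the iPSC mean is 100% and a prior count of 2 is used. The iNSLC library stood at 20.1% for member 1, 26.5% for member 5 and 30.1% for member 4. On this scale the greater part of their difference lay between iNSLCs and iPSCs. The value of member 1 leans on the prior count, as clones 1 and 2 had 2 counts each. Against clones 1, 2 and 3 alone it was 18.5, 19.0 and 23.7%. Member 6 was at 34.6%, a value set largely by the prior count as the clones had 0 counts. Member 2 was at 78.4%, so that most of its difference lay between fibroblasts and iNSLCs, although its 6 counts in iNSLCs leave this value loose. The median of the 5 members was 30.1% (28.4, 32.2 and 30.0% against each clone alone), and 28.3% without member 6. For all 1848 genes called lower with a fold of 4 or more, the median was 38.9% and the interquartile range 16.3 to 63.5%, which holds all members but member 2.

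**Figure D3:**
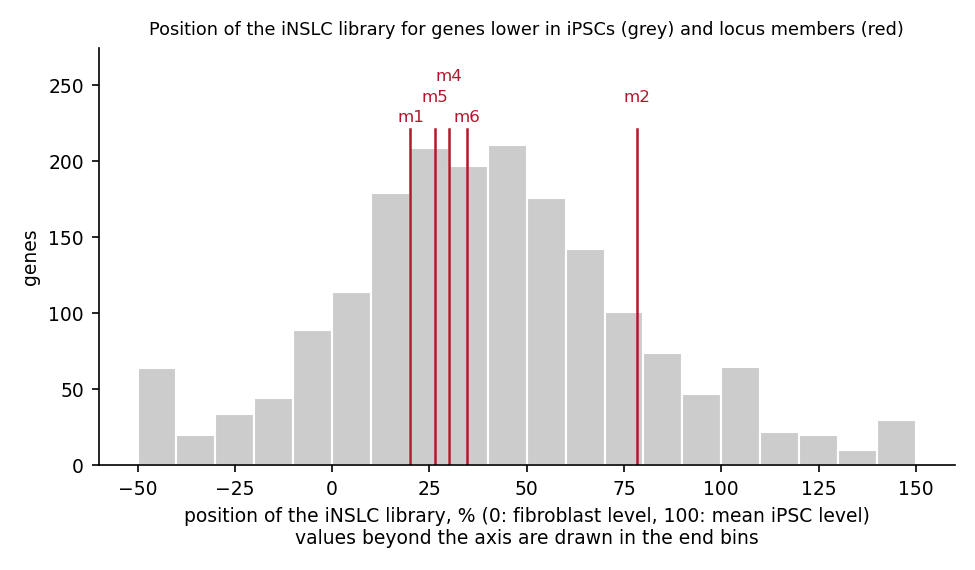
Position of the iNSLC library, in percent of the way from the fibroblast level to the mean iPSC level on the log2 scale. Grey bars (number of genes per bin) hold the 1848 genes called lower in iPSCs than in fibroblasts with a fitted fold of 4 or more. Red lines are 5 locus members. Members 1, 4, 5 and 6 lie between 20.1% and 34.6%, and member 2 at 78.4%.

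On the left, the lower levels ended within a short distance. The nearest model on that side (43444891 to 43445846) had 11 counts in fibroblasts, 0 in iNSLCs and at most 3 in a clone, and was too low to be tested. The next (43434112 to 43441957) showed 18.9 CPM for fibroblasts, 11.3 CPM for iNSLCs and 13.7 ± 5.76 CPM (SD, n = 3) for the clones, and was not called against either group (edgeR adjusted p = 0.538 and 0.765). Its fibroblast level lay within the range of the clones, 9.21 to 20.2 CPM. Over the 10 models on the left, 9 were tested, and against fibroblasts 1 was called lower and 3 higher, where 14.3% and 13.7% of all genes were called in these directions. One of the higher models (43383139 to 43396027) had 3 counts in fibroblasts, with 11.9 CPM for iNSLCs and 74.6 ± 10.7 CPM (SD, n = 3) for the clones, the reverse of the order seen for members 1, 4 and 5. Against iNSLCs, 0 of the 9 were lower and 2 higher by edgeR, at backgrounds of 7.71% and 3.51%. The 9 include ENSCAFG00000017552, which its start places on the left although 3 of its 4 exons lie inside the locus. It was called by edgeR in neither comparison.

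On the right, little RNA was present in any group. The nearest model (43540667 to 43541864) had 9 counts in fibroblasts, 4 in iNSLCs and 1, 0 and 1 in the clones, and was not called against fibroblasts (edgeR adjusted p = 0.0768). The next (43554066 to 43555606) had 11 counts in fibroblasts and 0 elsewhere. Of the 10 models on the right, 7 had fewer than 20 counts over all libraries, and 0 of the 4 tested were called by edgeR in either comparison. The first clearly expressed one (43720229 to 43769889) gave 51.6 CPM for fibroblasts, 43.9 CPM for iNSLCs and 29.0 ± 9.48 CPM (SD, n = 3) for the clones, and was not called (adjusted p = 0.199 and 0.394). Over chromosome 7 as a whole, 108 of 617 genes tested, or 17.5%, were lower in iPSCs than in fibroblasts, and 56, or 9.08%, were lower than in iNSLCs.

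**Figure D4:**
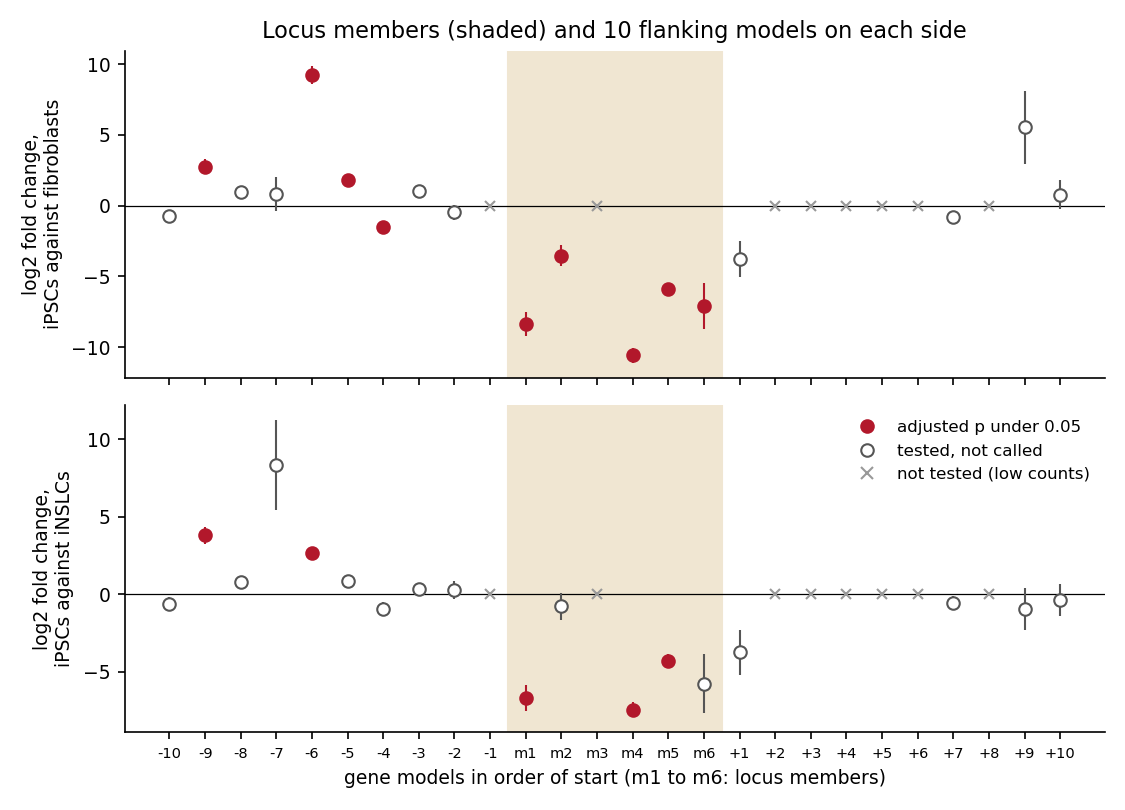
Log2 fold change of iPSCs against fibroblasts (upper panel) and against iNSLCs (lower panel), with standard errors, for the locus members (m1 to m6, shaded) and the 10 gene models on either side in order of start. Filled points passed an edgeR adjusted p under 0.05, open points did not and crosses mark models too low to be tested, and the values of member 6 and of the models that are at 0 counts in a group are fitted values without a floor. The members are lower in iPSCs between -3.52 and -10.59 in the upper panel, and the called models on the left lie on both sides of 0. ENSCAFG00000017552 is drawn on the left by its start, although 3 of its 4 exons lie inside the locus.

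Another model runs through the locus without being a member. ENSCAFG00000017552 starts outside it, at 43345344, with an exon of 18 bases, and its other 3 exons lie between members 4 and 5, from 43497154 to 43501012, on the same strand. It had 22 counts in fibroblasts (0.859 CPM), 0 in iNSLCs and 16, 73 and 34 in the clones, a mean of 1.55 ± 1.48 CPM (SD, n = 3). Its clones lay on both sides of the fibroblast level, and it was not called between iPSCs and fibroblasts (edgeR adjusted p = 0.626). Against iNSLCs placed at that floor (3 counts), the mean of iPSCs was at least 5.94-fold higher. Without iPSC 2, which had the most counts, that bound was 2.70-fold. This was a difference that edgeR did not call (adjusted p = 0.117) and DESeq2 did (adjusted p = 0.0491). Placed by these 3 exons rather than by its start, this model lies between members 4 and 5 without being called lower. At these counts and this spread between clones, that does not show that its level was unchanged.

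To ask which genes outside the locus had the most similar pattern, the median member profile, as log2(CPM + 1) in the 5 libraries, was compared with 11093 other models that reached 10 CPM in any library. Turned back from the log2 scale, this profile took the values 17.7 CPM (fibroblasts), 5.14 CPM (iNSLCs) and 0.122 to 0.337 CPM (clones). The nearest was a model on chromosome 11 (40586088 to 40616527) at a Euclidean distance of 0.353, at 19.5 CPM for fibroblasts, 6.45 CPM for iNSLCs and 0.0890 to 0.297 CPM for the clones. It was followed by models on chromosome 30 (37326947 to 37329458, distance 0.397), chromosome 23 (19547145 to 19643932, 0.413), chromosome 29 (22493776 to 22515117, 0.417) and chromosome 37 (10391048 to 10401822, 0.435). Each was highest in fibroblasts and higher in iNSLCs than in any clone, an order that follows from picking them by this profile. The profile is a median that no single member has. In fibroblasts it lies between member 2 (3.55 CPM) and member 1 (76.1 CPM), far under members 4 and 5. None of the 5 models lay on chromosome 7, which holds only 1126 of the 32220 models.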

How the data were processed

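RNA-seq of dog fibroblasts (1 library), iNSLCs (1 library) and iPSC clones (3 libraries) was analysed from the deposited counts, which are raw reads per gene model and not normalized. The tools listed in the submitters' processing notes are featureCounts 1.5.2, STAR 2.5.3a and Trim Galore 0.4.0, and the build is CanFam3.1. The treatment of strand and multi-mapping reads is not stated in the sources used here. Reads of related genes could be split between them. Per-library tables and the table of the series held identical counts. Even numbers were 59.6% to 74.0% of the counts between 1 and 10, highest in iNSLCs, so halved counts were tried as an alternative. Reads of vectors or mouse feeder cells were not separated.

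All genes were fitted in edgeR 4.0.16 (R 4.3.3; TMM, filterByExpr, glmQLFit, glmQLFTest) with a coefficient for each of the 3 groups, and Benjamini-Hochberg adjusted p-values under 0.05 were called. The spread came from the clones (2 residual degrees of freedom), and the lone libraries were assumed to vary like them. Standard errors were derived from the fold change and the F statistic. The fit was tested on simulated data. Fibroblasts and iNSLCs were compared by ratios with Poisson intervals of the iNSLC count, without a test. Intervals and floors cover counting error only, and reads carried no molecular identifiers. DESeq2 1.42.0, limma-voom 3.58.1, other scalings, no filter, fits of the compared groups only and leaving out each clone were alternatives. Members, lists and the naming rule (all members, the nearest 2 models on either side, and the 5 with the most similar profile) were chosen with earlier results of these data known. The other flanking models given with values and the spanning model were chosen after their values were seen. The lists of S100 genes and cell type markers could not be matched to IDs and were not analysed.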

Additional observations from a re-analysis of the deposited data

How the results depend on the processing

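The values of the locus rest on the scaling of the libraries and on the clones. Its summed level in fibroblasts was 1500 CPM with TMM, 1520 CPM with the size factors of DESeq2, 1345 CPM with the upper quartile and 1155 CPM with library size only, and in iNSLCs it was 397 CPM with the size factors of DESeq2 instead of 382 CPM. The iNSLC library stood at a median of 27.9% between the other groups with library size only and 26.4% with a prior count of 0.5, instead of 30.1%. With library size only, all genes had a median shift of 0.78 (log2) against fibroblasts instead of 0.27. The ratios of fibroblasts to iNSLCs were then 2.52, 6.85 and 2.33 for members 1, 4 and 5. Leaving out a clone gave 3 to 5 members lower than in fibroblasts and 0 to 3 lower than in iNSLCs, the lower number without iPSC 3 in each case. The fitted log2 fold changes of members 1, 4 and 5 against iNSLCs were then -8.31, -7.48 and -4.36, the first with both clones under the floor. The cause of the lost calls was not tested. Member 6 also lost its call against fibroblasts with library size only, without iPSC 1 and with DESeq2. With halved counts member 6 was too low to be tested. The 4 members tested in that setting were all called lower than in fibroblasts, and 3 were called lower than in iNSLCs. No fold change of a member changed sign in any alternative, but these refits share the same counts and the statement lends no support. Against fibroblasts the sign was fixed by the choice of the members. Member 6, with 0 counts in each clone, could take only this sign, and that of member 2 against iNSLCs cannot be read. No paired analysis was possible because fibroblasts and iNSLCs had 1 library each. The sample titles give the iNSLC library and iPSC clone 1 the same number, and whether they belong to the same line was not tested. Members 2, 3 and 6 are limited by depth, with at most 91 counts in any library.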
